A study of Mus musculus with 24 samples.

Results

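Cwc22 encodes a spliceosome-associated protein and was 1 of 24079 genes in the table of raw read counts from this study of mouse striatum. It was picked from earlier results of the same data, for the size of its difference between genotypes in the dorsal striatum (DS) and for its wide spread among wild-type libraries. Those 2 features are therefore described here without a test. The study compared rpS6 P-/- knockin mice, in which alanine replaces every phosphorylatable serine of ribosomal protein S6 (rpS6), with wild-type littermates on the same mixed C57Bl/6/Sv129/ICR background. Both sexes were used, the tissue of several mice was pooled in each replicate, and no drug treatment is given for these samples. The number of mice per replicate differs between the study's own statements, and their age is not given in the sources used here. RNA came from the DS and the nucleus accumbens (Acb), as whole lysate (the labels' Total, steady-state RNA) and as heavy polysomal fractions of the lysates (the labels' Heavy, RNA carrying more than 4 ribosomes in the labels and at least 4 in the methods). This gave 8 groups of 3 replicates, or 24 libraries. The Heavy and Total libraries of the same region, genotype and number were taken as coming from the same lysates, which makes 12 lysates.

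CWC22 belongs to the MIF4G family and binds the helicase EIF4A3 in the spliceosome. It brings EIF4A3 to newly spliced mRNA, where EIF4A3 becomes the core of the exon junction complex (EJC). The EJC marks places where introns were removed and acts in mRNA export, translation and nonsense-mediated decay. In mice the gene lies in a segment of chromosome 2 that is known to differ in copy number between strains. DNA was not measured in these samples, so neither the copy number of any mouse nor the output of each copy is known here. The 2 cannot be told apart from RNA counts.

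Cwc22 (Entrez 80744) spans chr2:77881159-77946356 on the minus strand of GRCm38, a length of 65198 bp. The reference annotation of that build (GENCODE M21) also holds 7 short genes that resemble the Cwc22 mRNA: Gm13698, Gm13693, Gm13695, Gm13696, Gm13694, Gm13697 and Gm13691. They stand in tandem on the plus strand between chr2:83955693-83993045, 6.01 Mb from Cwc22. Each spans 2493 bp in at most 2 exons, against 21 exons in the longest Cwc22 transcript. Their longest alignment to a Cwc22 transcript covered 2514 positions at 96.9% identity. None of the 7 had a row in the count table (0 of 7), so their reads, if any, had no gene of their own. The sequences below are coding sequence of Cwc22 and of 1 copy, Gm13695, and show where a 50-base read can and cannot separate them. In the first pair, from exon 5 of the longest Cwc22 transcript at chr2:77931466-77931545 and from chr2:83967408-83967487 in the copy, the capitals mark the 2 bases of 80 that differ.
Cwc22: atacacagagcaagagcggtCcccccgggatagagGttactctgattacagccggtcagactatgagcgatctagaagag
Gm13695: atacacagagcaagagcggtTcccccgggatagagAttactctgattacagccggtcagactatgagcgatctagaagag
In the second pair, from exon 8 of Cwc22 at chr2:77924596-77924655 and from chr2:83967891-83967950 in the copy, no base of 60 differs. This stretch is the start of a run of 169 bases that is the same in Cwc22 and in all 7 copies.
Cwc22: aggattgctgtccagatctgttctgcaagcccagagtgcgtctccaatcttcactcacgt
Gm13695: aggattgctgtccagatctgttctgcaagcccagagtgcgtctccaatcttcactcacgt

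Of the 3422 windows of 50 bases in the longest Cwc22 transcript (3471 bases), 1092 (31.9%) occurred letter for letter in a transcript of another gene. All lay in the coding sequence, where they made up 40.8% of 2675 windows. A read from such a window matches Cwc22 and a copy equally well, and the table does not show whether it was counted for Cwc22, left out, or came from a copy. The values below are uncertain to that extent and are those of the Cwc22 row of the table, not of a single locus.

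Cwc22 was read well in every library, with 208 to 2278 reads. Levels are given as counts per 1000000 assigned reads (CPM), scaled between libraries by the trimmed mean of M values (TMM). In wild-type Acb lysates the 3 libraries had 25.7, 86.9 and 26.2 CPM, in the order of their replicate numbers. In the heavy polysomal fractions of the same replicates Cwc22 stood at 16.4, 50.5 and 13.7 CPM. Replicate 2 was the high one in both kinds of RNA, and the other two lay close together. The knockin Acb lysates had 66.8, 81.9 and 81.1 CPM, and their heavy fractions 60.1, 59.6 and 64.4 CPM. Wild-type replicate 2 was thus above all 3 knockin libraries in whole lysate, while in heavy fractions it was below all 3. In Acb heavy fractions the genotypes thus did not overlap, as for 28.6% of genes with at least 50 reads per library, and in Acb lysates, where Cwc22 overlapped, 7.8% of such genes did not.

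In wild-type DS lysates the libraries had 48.8, 27.7 and 17.5 CPM, and in heavy fractions 26.2, 15 and 17.8 CPM. Replicate 1 was the highest in both kinds of RNA. Knockin DS libraries had 75.7, 100 and 95.6 CPM in whole lysate and 52.5, 57.3 and 56.3 CPM in heavy fractions. Every knockin DS library lay above every wild-type DS library of the same kind of RNA, where 12.5% of genes in heavy fractions and 15.1% in lysates had no overlap. In bulk tissue, more cells with the transcript and more transcript per cell cannot be told apart.

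**Figure D1:**
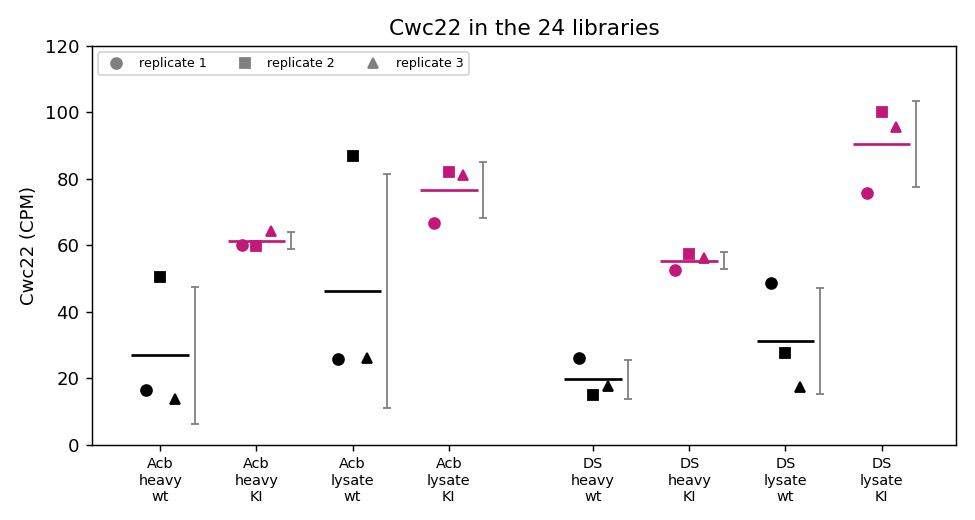
Cwc22 level (CPM, linear axis from 0) in each of the 24 libraries, by region, kind of RNA (heavy, heavy polysomal fractions; lysate, whole lysate) and genotype (wt, black; KI, rpS6 knockin, magenta), with the replicate number as symbol, the group mean as a line and the SD (n = 3) as a grey bar. Wild-type replicate 2 of the Acb (squares at 50.5 and 86.9 CPM) sits near the knockin libraries, apart from the other wild-type Acb libraries of the same kind of RNA.

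Ordered by mean, the groups began with wild-type DS heavy fractions at 19.6 ± 5.83 CPM (SD, n = 3 in each group). Wild-type Acb heavy fractions followed at 26.9 ± 20.5, wild-type DS lysates at 31.3 ± 15.9 and wild-type Acb lysates at 46.2 ± 35.2 CPM. The knockin groups were next, with DS heavy fractions at 55.4 ± 2.53, Acb heavy fractions at 61.4 ± 2.64, Acb lysates at 76.6 ± 8.5 and DS lysates at 90.4 ± 13 CPM. All 4 knockin means were above all 4 wild-type means. The values of neighbouring groups in this order overlapped, except on either side of the knockin Acb heavy fractions (59.6 to 64.4 CPM). The gaps there were small, to 57.3 CPM in knockin DS heavy fractions and 66.8 CPM in knockin Acb lysates. The share of all genes with such gaps was not counted, so no difference is read from them.

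The spread among replicates, 1 of the features for which the gene was picked, was larger in each wild-type group than in the matching knockin group. It is given as the SD of log2 CPM and set beside the 11979 genes with at least 50 reads per library on average. In wild-type Acb heavy fractions the SD was 1.02, against 0.21 for the median gene, and 0.459% of genes had a larger one. In wild-type Acb lysates it was 1.0 (median gene 0.22), and 2.68% of genes were more variable. The wild-type DS lysates had an SD of 0.74, with 5.13% of genes above it, and the wild-type DS heavy fractions 0.41, with 26.2% above. The position of Cwc22 among all genes thus differed between the kinds of RNA in the wild-type DS.

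Among knockin libraries the SD was 0.06 in Acb heavy fractions and 0.07 in DS heavy fractions, where 95.2% and 94.7% of genes varied more. In knockin lysates it was 0.17 in the Acb (median gene 0.26) and 0.22 in the DS (median gene 0.19), with 70.3% and 44.7% of genes above. Over the 6 wild-type lysates Cwc22 in whole lysate covered a 4.97-fold range, and over the 6 knockin lysates a 1.5-fold range. In heavy fractions the ranges were 3.69-fold and 1.23-fold.

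**Figure D2:**
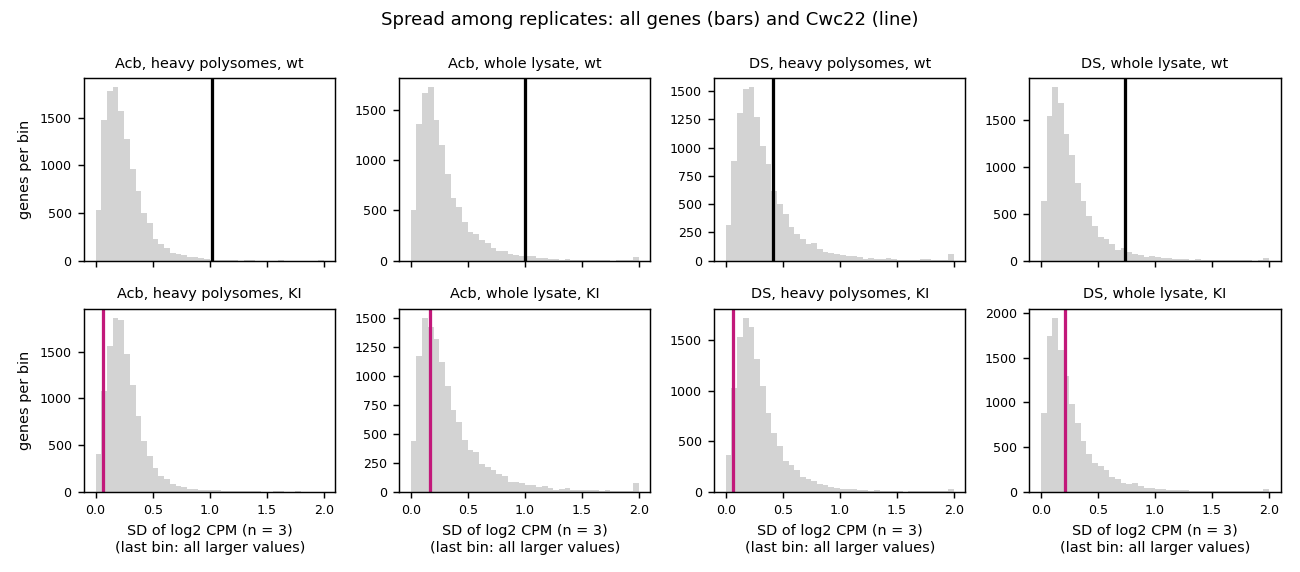
Histograms of the SD of log2 CPM over the 3 libraries of a group (horizontal axis) for all genes with at least 50 reads per library on average (grey bars, number of genes), with Cwc22 as a vertical line, for wild-type (top row) and rpS6 knockin (bottom row) groups. The Cwc22 line lies in the right tail in the wild-type Acb (1.02 and 1.0) and at the left edge in knockin heavy fractions (0.06 and 0.07).

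The second question was whether Cwc22 was loaded on heavy polysomes in proportion to its level in the lysate. Its CPM was lower in the heavy fractions than in the whole lysate in 11 of 12 lysates, with a median heavy to lysate ratio of 0.613. In the wild-type Acb the ratios were 0.638, 0.582 and 0.523, so that replicate 2, with its high level in both libraries, had the middle ratio of the 3. In the knockin Acb the ratios were 0.900, 0.728 and 0.795. The 3 knockin ratios of the Acb were all above the 3 wild-type ratios, and 18.1% of genes with at least 50 reads per library had no overlap of these ratios.

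The ratios of the wild-type DS were 0.537, 0.540 and 1.02, and replicate 3 was the only lysate with no lower value in heavy fractions. The knockin DS had 0.694, 0.573 and 0.589, all between the lowest and the highest wild-type ratio, while 10.4% of genes had no overlap there. Within the wild-type Acb the SD of the log2 ratio was 0.14, while the SD of the log2 level, averaged over both kinds of RNA, was 1.01. In the wild-type DS the SDs of ratio and level were 0.53 and 0.54, in the knockin Acb 0.15 and 0.10, and in the knockin DS 0.15 and 0.14. The level thus varied far more than the ratio in the wild-type Acb, and about as much as or less than the ratio in the other 3 groups.

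**Figure D3:**
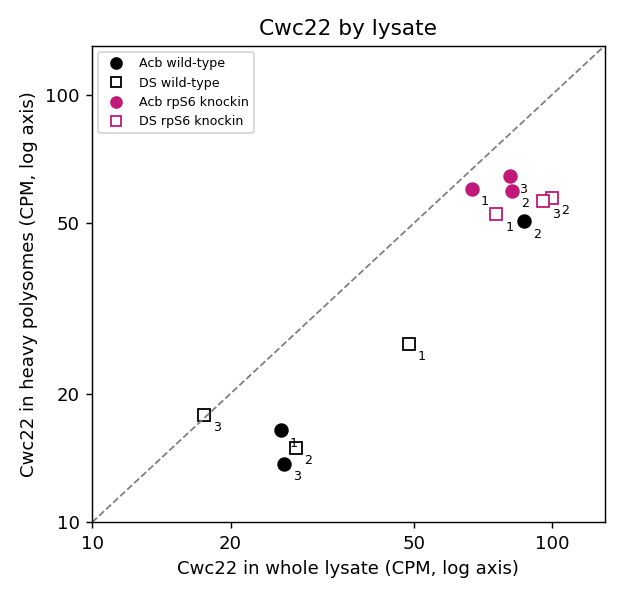
Cwc22 in heavy polysomal fractions against whole lysate (CPM, both axes logarithmic) for the 12 lysates (Acb, filled circles; DS, open squares; wild-type, black; rpS6 knockin, magenta; digits, replicate number). The dashed line marks equal values, and 11 of 12 lysates lie below it.

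Tested over the genotypes together, Cwc22 was lower in heavy fractions than in whole lysates of the DS, with a log2 difference of -0.72 (SE 0.15, 95% interval -1.03 to -0.40, adjusted p = 1.43e-04, edgeR's quasi-likelihood test with Benjamini-Hochberg adjustment over all genes). In the Acb the log2 difference was -0.56 (SE 0.23, 95% interval -1.02 to -0.10), which missed the threshold of 0.05 (edgeR adjusted p = 0.0562). With the lysate as a block, which pairs the Heavy and Total libraries, the Acb value was -0.55 and passed (edgeR adjusted p = 2.34e-04). Such differences were common, since 37.2% of genes tested in the DS and 31.7% in the Acb passed without the block. Of all genes tested, 16.9% in the DS and 19.8% in the Acb had a lower log2 difference than Cwc22, and the medians of all genes were 0.03 and 0.06. With scaling by library size alone the log2 differences were -0.52 in the DS and -0.31 in the Acb. The noncoding RNA Bc1 took 15.2 to 26.1% of the assigned reads in lysates and 0.897 to 3.85% in heavy fractions, and its part in these values was not tested.

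The Acb allowed a test of the genotypes in lysates other than those of the DS, though its wide wild-type spread was part of the choice of the gene. Whether the Acb and DS libraries of the same number came from the same mice is not stated in the sources used here, so the 2 regions may not be independent. In Acb heavy fractions Cwc22 had a log2 fold change of 1.21 in knockin over wild-type mice (SE 0.34, 95% interval 0.49 to 1.93) and no overlap between the genotypes. The difference did not pass after adjustment over the 16227 genes tested (edgeR adjusted p = 0.105; DESeq2 adjusted p = 0.162). No gene passed there by edgeR (0.0% of genes), while 3518 genes had an unadjusted p under 0.05 and DESeq2 called 951.

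In Acb lysates the log2 fold change was 0.73 (SE 0.24, 95% interval 0.24 to 1.21) with overlap between the genotypes, and it did not pass (edgeR adjusted p = 1.0). The share of genes called in that comparison was 0.0065%. The edgeR fit moderates each gene's spread towards that of all genes, and in DESeq2 the same log2 fold change of 0.73 had an SE of 0.60. In Acb heavy fractions DESeq2 gave 1.19 with an SE of 0.61, so the edgeR SEs and intervals may be too narrow for Cwc22. Both edgeR values of the Acb were lowered by wild-type replicate 2. Its high level is part of the spread for which the gene was picked. Without it, the log2 fold change was 2.03 in heavy fractions and 1.56 in lysates, given as a description without a test. Without wild-type replicate 1 or 3 the lysate value was 0.43 or 0.45, both with an edgeR adjusted p of 1.0.

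In the DS, where the gene was picked for this difference, the log2 fold change was 1.55 in heavy fractions (SE 0.22) and 1.5 in lysates (SE 0.19). These edgeR SEs are moderated too, and DESeq2 gave SEs of 0.24 in heavy fractions and 0.44 in lysates. The share of genes called by edgeR was 0.044% in heavy fractions and 0.122% in lysates. Translational efficiency, the ratio of heavy fractions to lysate compared between genotypes, had a log2 difference of 0.48 in the Acb (SE 0.45, 95% interval -0.44 to 1.39), which did not pass (edgeR adjusted p = 0.721). By edgeR 0.0% of genes passed for translational efficiency in either region. In the Acb 1992 genes had an unadjusted p under 0.05 and DESeq2 called 3, and in the DS these counts were 811 and 0. For Cwc22 in the DS the log2 difference was 0.02 (SE 0.31), given as a description.

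Genes that work with CWC22 in splicing and at the EJC, and other genes with a MIF4G domain, were compared between genotypes as 4 lists with 58 genes in all. Of the EJC core, 4 of 5 genes could be tested, since the symbol Magoh had only 3 reads in all libraries together. By edgeR, 0 of the genes tested passed in any list or in any of the 4 comparisons, in either direction. DESeq2 called 5 list genes in Acb heavy fractions, where it called 5.86% of all genes. It called 0 list genes in Acb lysates, DS heavy fractions and DS lysates, where it called 0.0065%, 0.0944% and 0.609% of all genes.

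The helicase gene Eif4a3, whose protein CWC22 binds, had 42.1 ± 13.9 CPM in wild-type and 62.1 ± 7.66 CPM in knockin Acb heavy fractions (log2 fold change 0.56, edgeR adjusted p = 0.146). In Acb lysates, DS heavy fractions and DS lysates its log2 fold changes were 0.06, -0.04 and -0.33 (edgeR adjusted p = 1.0, 0.996 and 0.550). Rbm8a, whose product forms a heterodimer with MAGOH proteins on EIF4A3, had log2 fold changes of -0.41, 0.12, -0.15 and -0.04 in Acb heavy fractions, Acb lysates, DS heavy fractions and DS lysates. Magohb, the second MAGOH gene, had -0.70, 0.36, -0.20 and 0.05 in the same order. For Casc3, the remaining core subunit, the values were 0.48, 0.01, -0.04 and 0.18. In Acb heavy fractions these core genes lay on both sides of 0, and all 4 had an unadjusted p under 0.05, as did 21.7% of all genes there.

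Median log2 fold changes of the lists lay between -0.17 and 0.25. For the EJC core they were 0.03 in Acb heavy fractions, 0.09 in Acb lysates, -0.10 in DS heavy fractions and 0.01 in DS lysates. The 18 genes of the EJC periphery, export and decay had medians of 0.24, 0.02, -0.13 and 0.00, and the 28 spliceosome partners 0.25, -0.04, -0.06 and 0.02. The 7 other MIF4G genes had 0.23, 0.10, -0.17 and 0.01. Over all genes tested the medians were -0.01, 0.00, 0.03 and 0.00. In DS heavy fractions, where Cwc22 had its largest log2 fold change, 0 of 4, 2 of 18, 10 of 28 and 1 of 7 genes of the 4 lists had a value above 0. At an unadjusted p under 0.05 stood 4, 12 and 2 genes of the last 3 lists in Acb heavy fractions, where 21.7% of all genes did. These counts were 0, 2 and 0 in Acb lysates (2.96% of all genes), 2, 1 and 0 in DS heavy fractions (6.42%), and 1, 1 and 0 in DS lysates (9.07%).

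The largest values in Acb heavy fractions were those of the spliceosome partners Prpf19, the ubiquitin ligase at the centre of the Prpf19 spliceosome complex, at 0.79 (SE 0.19, edgeR adjusted p = 0.0983), and Cdc40, a factor of the second splicing step, at 0.72 (SE 0.17, edgeR adjusted p = 0.0987). Smg9, of the SMG1 kinase complex in nonsense-mediated decay, had 0.58, and Pym1, which takes the EJC apart on ribosomes, had -0.58. Among other MIF4G genes Nom1 had 0.54 and the translation initiation factor gene Eif4g2 -0.42. In Acb lysates the extremes by size were Ppie at 0.63 and Dhx38 at 0.57 among spliceosome partners, Upf3b at 0.36 and Smg6 at 0.26 in the periphery list, and Nom1 at 0.32 and Eif4g3 at -0.22 among MIF4G genes. In DS heavy fractions they were Syf2 at -0.49 and Isy1 at -0.45, the decay helicase gene Upf1 at -0.59 and Pym1 at -0.46, and Paip1 at -0.24 and Eif4g3 at -0.22. In DS lysates they were Dhx16 at -0.47 and Ppil1 at 0.35, Smg9 at -0.51 and Smg8 at 0.30, and Nom1 at 0.25 and Ncbp1 at 0.08. None of these passed. In each comparison Cwc22 had a log2 fold change above all genes of these lists. In the DS the size of its difference was a reason for picking it, so its place there is not a result. In Acb lysates, where it was 0.43 without wild-type replicate 1 and 0.45 without wild-type replicate 3, the order of Cwc22 and Ppie is not settled.

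**Figure D4:**
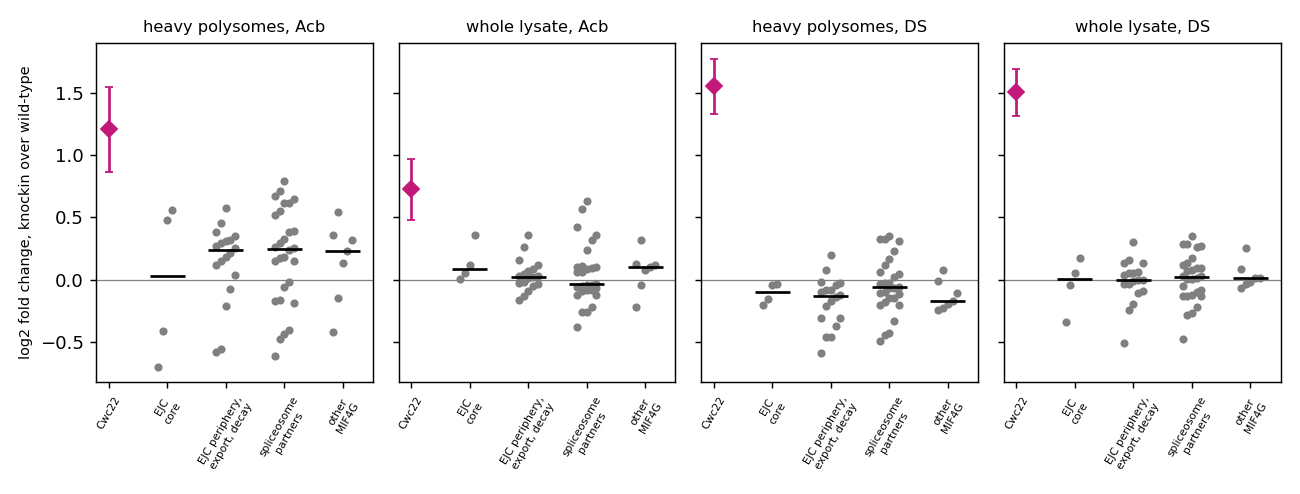
Log2 fold change (knockin over wild-type) of Cwc22 (magenta diamond, bar 1 SE) and of the tested genes of the 4 lists (grey points; black line, median of the list) in the 4 comparisons. The highest list gene in Acb heavy fractions stands at 0.79 and Cwc22 at 1.21.

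Genes beside Cwc22 on chromosome 2 were examined for a shared difference. The table held 68 genes within 5 Mb, of which 41 to 47 could be tested, depending on the comparison. By edgeR, 0 passed in any of the 4 comparisons. In Acb heavy fractions 12 of 47 flanking genes had an unadjusted p under 0.05, beside 21.7% of all genes, and DESeq2 called 4, beside 5.86% of all genes. In DS heavy fractions 2 of 43 and in DS lysates 4 of 42 had an unadjusted p under 0.05, beside 6.42% and 9.07% of all genes, and DESeq2 called 0. In Acb lysates both counts were 0. The median log2 fold changes of flanking genes were 0.16 in Acb heavy fractions, 0.04 in Acb lysates, 0.11 in DS heavy fractions and 0.06 in DS lysates. Over all genes tested the medians were -0.01, -0.0004, 0.03 and -0.003. The flanking medians were thus the higher ones in each comparison, and this difference was not tested.

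The nearest tested gene was the zinc finger gene Zfp385b, 63.5 kb away, with log2 fold changes of -0.33 in Acb heavy fractions, 0.04 in Acb lysates, -0.10 in DS heavy fractions and -0.22 in DS lysates. Sestd1, 601 kb away on the same side, had 0.09, 0.13, -0.08 and 0.12 in that order. Ccdc141, 707 kb away with 78.2 reads per library on average, had 0.65, 0.72, 0.43 and 1.54, and did not pass (lowest edgeR adjusted p = 0.267, in DS lysates). Its values were above 0 in all 4 comparisons, as were those of Cwc22 and of several other flanking genes, such as Scrn3. On the other side Gm14461, with 1.88 reads per library, could be tested only in Acb heavy fractions (log2 fold change 0.42, edgeR adjusted p = 0.919). Ube2e3, a ubiquitin-conjugating enzyme gene 922 kb away, had -0.16, -0.17, 0.04 and -0.03, and the integrin gene Itga4, 1309 kb away, had 0.14, -0.59, 0.06 and 0.12.

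Among the 37 flanking genes with at least 50 reads per library, the log2 fold changes ran from -0.79 to 1.08 in Acb heavy fractions and from -0.79 to 0.72 in Acb lysates. They ran from -0.50 to 0.98 in DS heavy fractions and from -0.54 to 2.36 in DS lysates. The value of 2.36 was that of Fkbp7, a chaperone gene with 50.0 reads per library on average over all 24 libraries (edgeR adjusted p = 0.554). Cwc22 was above all of these flanking genes in heavy fractions of both regions, though its DS values were part of the choice of the gene. In Acb heavy fractions the highest flanking value was that of Neurod1 (0.79 ± 0.60 CPM in wild-type libraries). Cwc22 had 0.95 there without wild-type replicate 1 and 0.89 without wild-type replicate 3, so the order of Cwc22 and Neurod1 is not settled. In Acb lysates Ccdc141 at 0.72 and Cwc22 at 0.73 (SE 0.24) could not be ranked. In DS lysates Ccdc141 at 1.54 and Cwc22 at 1.5 (SE 0.19) could not be ranked either. Fkbp7 had a larger value there, but it rested on low levels, 0.42 ± 0.36 CPM in wild-type and 2.25 ± 2.08 CPM in knockin libraries.

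**Figure D5:**
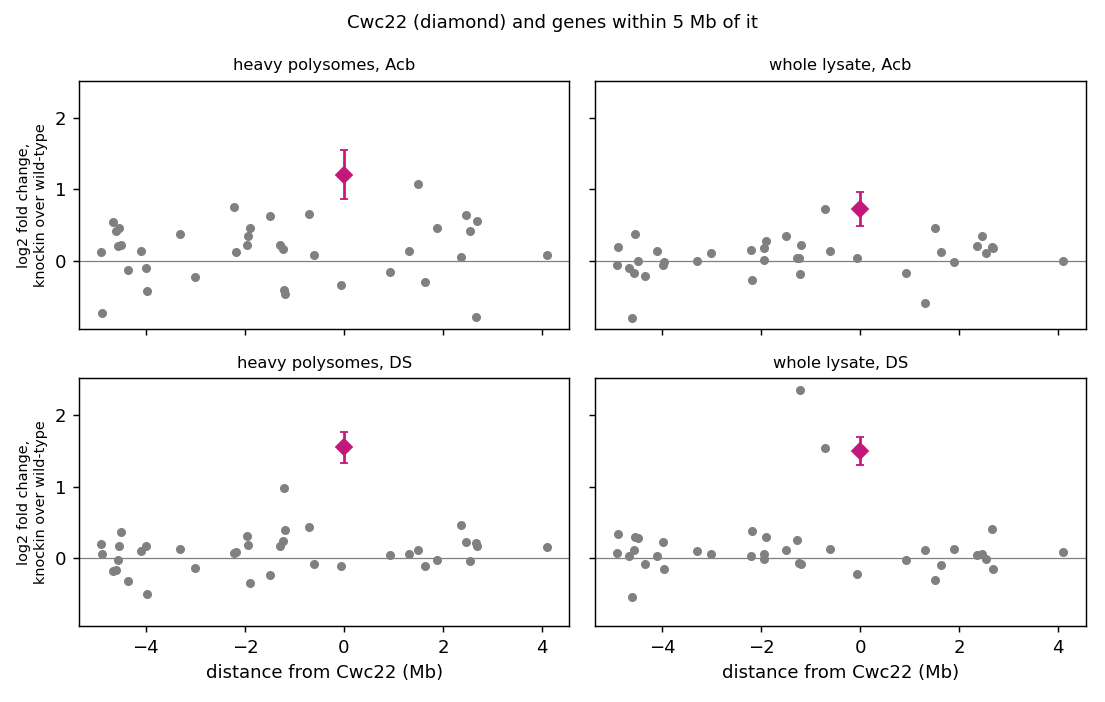
Log2 fold change (knockin over wild-type) of Cwc22 (magenta diamond, bar 1 SE) and of the 37 genes within 5 Mb with at least 50 reads per library on average (grey points), against the distance from Cwc22 in Mb, in the 4 comparisons. Single grey points stand at or above 0.72 in each panel, such as Neurod1 at 1.08 in Acb heavy fractions, Ccdc141 at 0.72 in Acb lysates, and Fkbp7 at 0.98 in DS heavy fractions and 2.36 in DS lysates.

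The genes whose pattern was most like that of Cwc22 were found by Pearson correlation of log2 CPM over the 24 libraries, centred within each region and kind of RNA. The libraries share genotype groups, lysates and depth, so the values are a description. Strip2, a striatin-interacting protein gene on chromosome 6, came first (r = 0.79), followed by the adhesion molecule gene Alcam on chromosome 16 (r = 0.77) and the adaptor gene Nck1 on chromosome 9 (r = 0.76). Morf4l2 on the X chromosome (r = 0.75) and the synaptotagmin gene Syt4 on chromosome 18 (r = 0.73) were next. The lowest value, -0.79, was that of Flot2, so the most alike and the most opposite genes were about equally far from 0. Over 11978 genes the first percentile was -0.59 and the 99th was 0.56. None of the 5 lay on chromosome 2.

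Strip2 shows how much smaller the movement of such a gene was. It had 109 ± 9.06 CPM in wild-type and 150 ± 19.4 CPM in knockin Acb heavy fractions, and 78.6 ± 25.0 against 109 ± 2.58 CPM in DS lysates. Its log2 fold changes were 0.47, 0.14, 0.45 and 0.46 in Acb heavy fractions, Acb lysates, DS heavy fractions and DS lysates, against 1.21, 0.73, 1.55 and 1.5 for Cwc22. The DS values of Cwc22 were large by the choice of the gene. Across the flanking genes with at least 50 reads the correlation ran from -0.59 for Zfp385b to 0.59 for Scrn3, with a median of 0.18. Eif4a3 and the other tested core genes had values between -0.34 and 0.33.

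The libraries held 9280589 to 34703044 assigned reads, with a median of 16678553. The 8 markers of medium spiny neurons, the main cell type of the striatum, were all detected in every group, with a summed level of 3361 to 3809 CPM in the 12 whole lysates. Wild-type Acb replicate 2, the library with high Cwc22, had 3801 CPM. Markers of cortical excitatory neurons summed to 68.0 to 192 CPM in Acb lysates and 682 to 902 CPM in DS lysates, and those of choroid plexus to 29.1 to 54.2 and 11 to 20.2 CPM, with overlap between genotypes in the lysates of both regions. In DS heavy fractions, however, the choroid plexus markers summed to 13.1 to 16.2 CPM in wild-type and 19.3 to 19.7 CPM in knockin libraries. These sums did not overlap and were higher in knockin libraries, as for Cwc22. There 12.5% of genes with at least 50 reads per library had no overlap. In Acb heavy fractions the same markers went the other way, with overlap. They summed to 52.1 to 73.8 CPM in wild-type (median 63.0) and 48.7 to 55.4 CPM in knockin libraries (median 50.5). Summed markers of oligodendrocytes, astrocytes and microglia overlapped between the genotypes in both regions and both kinds of RNA. The part of these cells in the Cwc22 values was not tested. Rps6, on chromosome 4, carries point mutations that counts per gene cannot show, so it does not check the labels. Its log2 fold changes were 0.08, -0.05, 0.13 and -0.02 in Acb heavy fractions, Acb lysates, DS heavy fractions and DS lysates (edgeR adjusted p = 0.819, 1.0, 0.966 and 0.980).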

How the data were processed

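RNA of heavy polysomal fractions and of whole lysates was sequenced as poly-A selected, stranded, single-end reads of 50 bases. The authors aligned them to mm10 (GRCm38) with TopHat 2.0.13 and Bowtie 2.2.3 using UCSC gene models, discarded alignments with over 3 mismatches, and counted reads per gene on the opposite strand with HTSeq 0.6.1p1 in union mode. The deposited values are raw counts for 24079 genes in 24 libraries, all used here. Groups came from the sample labels, and the labels give no batch. The methods report contamination by E. coli sequences and repeated sequencing to reach the depth wanted. Which libraries were sequenced in which run is not given in the labels.

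Counts were fitted with edgeR 4.0.16 in R 4.3.3 (TMM scaling, quasi-likelihood test, genes with at least 15 reads over the libraries compared, Benjamini-Hochberg adjustment over all genes tested, threshold 0.05), where the study used DESeq2. CPM was computed with TMM over the 24 libraries, and log2 CPM with a prior count of 2. For translational efficiency, the genotype difference in heavy fractions was set against that in lysates in a single fit. The study used Xtail for that comparison, which was not run here, so counts of genes called are not from the same method. The fits were tested on simulated data. Heavy and Total libraries of 1 number are paired through the shared lysate described in the methods. Their deviations from the group means correlated between -0.04 and 0.07 in 12 lysates, with 0 over 0.1, so the pairing rests on the methods and not on the counts. Similar transcripts were searched with BLASTN in GENCODE M21. Positions of flanking genes and of Cwc22 came from RefSeq (GRCm38.p6), and 23973 genes of the table had one. Wibg and Drd1a in the table were read as Pym1 and Drd1.

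The member, the lists and the tests were chosen with earlier results of these data known. Named genes were Cwc22, the EJC core genes, the 2 genes with the largest absolute log2 fold change per other list and comparison, the 3 nearest tested genes on each side, the 5 genes most like Cwc22, and Rps6. Ccdc141 and Fkbp7 in DS lysates, Scrn3 and Flot2 were also named after their values were seen. Alternatives were DESeq2 1.42.0, its size factors, library size scaling, other filters, the replicate block, 1 fit over 24 libraries, and leaving out each replicate. Replicates are described as biological pools of mice.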

Additional observations from a re-analysis of the deposited data

How the results depend on the processing

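Of the Cwc22 values, none changed direction in the tested comparisons under any alternative. For Acb heavy fractions the log2 fold change of 1.21 passed the threshold with no filter beyond 1 read (1.21, adjusted p = 0.0162), in 1 fit over 24 libraries (1.17, adjusted p = 0.0244) and with the replicate block (1.46, adjusted p = 0.0282), all by edgeR. Leaving out each library gave 0.89 to 2.03, the highest without wild-type replicate 2, where no test is given because of how the gene was picked. With any other library left out it did not pass. For Acb lysates the value of 0.73 passed with the replicate block (0.96, edgeR adjusted p = 1.35e-04), and leaving out each library gave 0.43 to 1.56. The highest was again without wild-type replicate 2, and with any other library left out it did not pass. Wild-type and knockin samples share only a number, so the block was not taken as a pairing. Over 12 such pairs the deviations from the group means correlated between -0.29 and 0.32, with 2 over 0.1. These correlations cannot decide the question, since those of the lysate pairs were no higher. For heavy fractions against lysates of the Acb, -0.56 passed with DESeq2 size factors in edgeR (-0.59, adjusted p = 0.0481), with no filter (-0.56, edgeR adjusted p = 1.55e-04) and with the lysate as replicate block (-0.55). It did not pass by DESeq2 (-0.58, DESeq2 adjusted p = 0.295), with library size scaling (-0.31, edgeR adjusted p = 0.265) or with edgeR's own filter (-0.57, edgeR adjusted p = 0.0852). Leaving out each lysate, with both of its libraries, gave -0.60 to -0.52, past the threshold without wild-type replicate 1 or 2. The DS value of that comparison passed under all 12 alternatives (-0.83 to -0.52). The DS genotype values, a description, ran from 1.39 to 1.8 in heavy fractions and 1.22 to 1.98 in lysates. The lysate block changed no other call for Cwc22. Translational efficiency in the Acb passed under none (0.40 to 0.55), and its DS value, a description, ran from -0.23 to 0.24. In Acb heavy fractions 2 list genes and 2 flanking genes passed with no filter, 5 and 4 by DESeq2, and 3 and 2 in 1 fit over 24 libraries. Of the 5 genes most like Cwc22, 2 stayed among the first 5 by Spearman correlation, 1 without centring and 1 in whole lysates alone. The cause of these changes was not tested.

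Counts of genes called moved widely. In Acb heavy fractions 0 became 1 with library size scaling, 549 with no filter, 951 by DESeq2, 98 with the replicate block and 813 in 1 fit over 24 libraries. In DS heavy fractions 7 became 1 with edgeR's own filter, 37 with no filter, 15 by DESeq2, 31 with the block and 0 in 1 fit. In DS lysates 19 became 10 with library size scaling, 2 with edgeR's filter, 66 with no filter, 95 by DESeq2, 71 with the block and 0 in 1 fit. In Acb lysates 1 became 0 with edgeR's filter, 2 with no filter, 5 with the block and 0 in 1 fit. For translational efficiency 0 became 107 with no filter, 3 by DESeq2 and 106 with the block in the Acb, and 5 with no filter and 6 with the block in the DS. Leaving out each replicate, with both of its libraries for translational efficiency, gave 0 to 3, 0 to 29, 1 to 56, 0 to 3, 0 to 41 and 0 to 17 genes in these 6 comparisons, in the same order. With 3 libraries a group, 1 of which carries the Acb wild-type spread, these data do not fix the size of the Acb difference, and reads shared with the copies are not resolved.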
